A study of Oryza sativa with 6 samples.

Results

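The cytosolic ribosome is built from a small (40S) and a large (60S) subunit, each made of ribosomal RNA and a set of ribosomal proteins that are needed in equal number, apart from the stalk proteins of the large subunit. In plants each ribosomal protein is usually encoded by several gene copies, and these transcripts tend to be abundant in growing tissue. In a cereal grain, the starchy endosperm fills with starch and storage proteins and then dries and dies, while the embryo and aleurone stay alive.

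Transcripts of these genes were compared between grains of the rice mutant sg34 and grains of its wild type, Zhenong 34 (WT), both taken at the mature period, with 3 libraries of each line made from total RNA. The labels name neither the mutated gene nor the number of plants behind a library, so a p-value measures only the spread between these libraries, which may be technical. Members were the rows in which the name that opens the description contains that of a 40S ribosomal protein, a 60S ribosomal protein or a 60S acidic ribosomal protein, and 222 of 55986 rows met this rule. Values are TPM, in which a transcript's reads are corrected for its length and scaled to the same nominal total in every library, the depth behind them is unknown, and in whole grains fewer cells of a type and less RNA per cell cannot be told apart.

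By their names, 89 members encode proteins of the 40S subunit, 121 encode proteins of the 60S subunit and 12 encode its acidic stalk proteins. They stand for 79 cytosolic proteins, of which 32 belong to the 40S subunit, 43 to the 60S subunit and 4 to the stalk. Among the same 222 members, 5 are described as mitochondrial and 4 as L18a-like proteins, and these are not counted in the 79 proteins. The 11 members described as fusions of ubiquitin with S27a or L40 are counted there. The label was checked against the deposited domain annotation, in which 213 of the 222 members carry a ribosomal protein domain. The 9 without one include all 4 L18a-like rows, LOC_Os03g26229 (described as S9-1), LOC_Os03g54860 (described as L13a-2) and LOC_Os01g08280, which is described as S2 while its best protein match is a tudor domain-containing protein. Members lie on all 12 chromosomes, from 9 on chromosome 10 to 34 on chromosome 3. Of the 222, 197 passed the filter of at least 1 TPM in at least 3 libraries, 25 did not, and 12 were listed at 0 in every library. L41 was not analysed here.

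Together the members took 1.82%, 3.03% and 5.89% of the TPM total in sg34 replicates 1 to 3, against 17.3%, 3.85% and 6.95% in WT replicates 1 to 3. The lowest library was a mutant one and the highest a WT one, but the lines overlapped, since sg34 replicate 3 lay above WT replicate 2. The mean share was 3.58% ± 2.09 in sg34 and 9.37% ± 7.04 in WT (SD, n = 3 each), a difference of -5.78 percentage points beside a pooled SD of 5.19 points. The test did not separate the lines (exact permutation test, two-sided, p = 0.2, where 3 libraries against 3 allow no p below 0.1). WT replicate 1 decided the size of this difference, which was -1.82 percentage points without that library. On TPM as deposited, that library held 9.26 times the summed member TPM of sg34 replicate 1. The contrast was 3.91-fold after scaling over all genes (described below).

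The share of the seed storage proteins ran in exactly the opposite order over the 6 libraries. Rows described as glutelin, prolamin, globulin or seed storage protein took 38.9%, 37.9% and 29.4% of the TPM total in sg34, against 5.97%, 34.9% and 27.5% in WT. The glutelin and prolamin rows alone, which mark the starchy endosperm, gave 26.6% to 35.4% in sg34 and 4.16% to 30.3% in WT. Oil body and embryo globulin rows lay at 0.293% to 0.492% in sg34 and 0.107% to 0.559% in WT, and rows of green tissue stayed at or below 0.0180% in sg34 and 0.0371% in WT. TPM are shares, so a rise of one class lowers all others in the same library. With the storage protein rows left out of the total, the members took 2.98%, 4.89% and 8.35% in sg34, against 18.4%, 5.92% and 9.59% in WT, which keeps the order of the libraries and the p of 0.2 in the exact permutation test. Fits without WT replicate 1, and with the storage protein rows left out of the total, are given below. Whether the storage proteins or that library caused the results that follow was not tested.

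**Figure D1:**
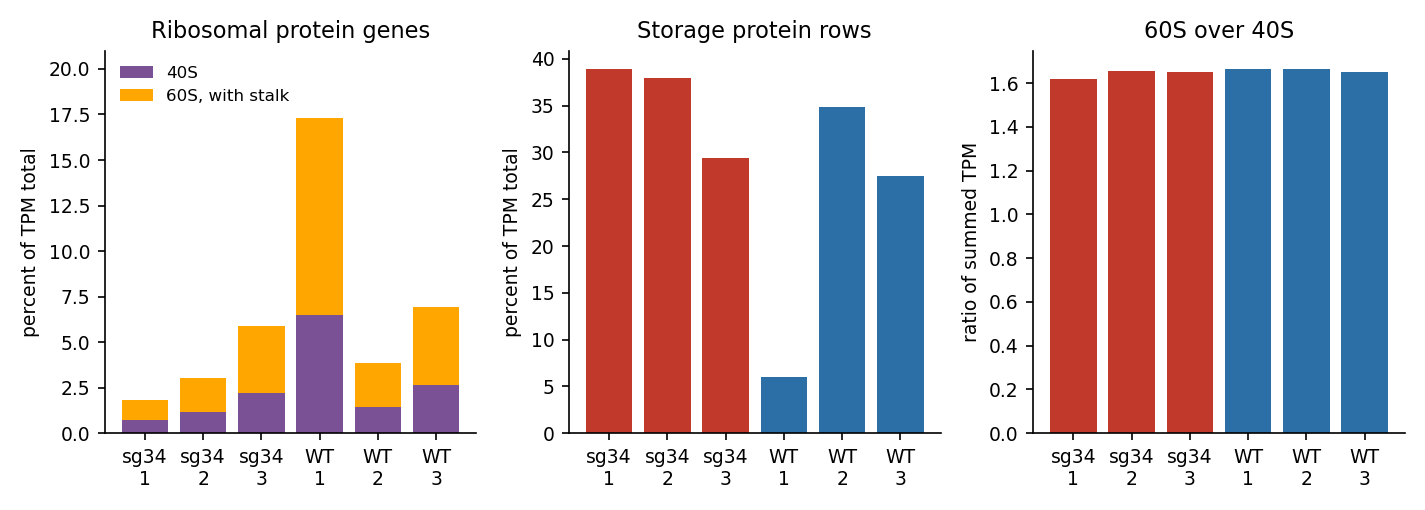
Share of each library's TPM total taken by ribosomal protein genes (left, 40S and 60S stacked) and by storage protein rows (middle), and the ratio of summed 60S to summed 40S TPM (right), one bar per library with sg34 before WT. WT replicate 1 stands out with 17.3% ribosomal protein and 5.97% storage protein TPM, while the ratio stays between 1.62 and 1.66 in all 6 libraries.

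Both subunits kept the same proportion while the pool varied. The 40S members took 0.696%, 1.14% and 2.22% of the TPM total in sg34, against 6.49%, 1.45% and 2.62% in WT. The 60S members with the stalk took 1.13%, 1.89% and 3.67% in sg34, against 10.8%, 2.41% and 4.33% in WT. Their ratio was 1.62, 1.65 and 1.65 in sg34 and 1.66, 1.66 and 1.65 in WT, so the lines overlapped and differed by -0.0194 on average (exact permutation test, two-sided, p = 0.2). The acidic stalk proteins made up 4.38%, 4.83% and 4.97% of member TPM in sg34 and 4.94%, 4.45% and 4.70% in WT.

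The single genes followed the pool. Of the 190 members with a mean of at least 10 TPM, all 190 were highest in WT replicate 1, 187 were lowest in sg34 replicate 1, and 189 were lower in WT replicate 2 than in sg34 replicate 3. The full order of the 6 libraries was that of the summed pool in 154 of them. Between sg34 replicate 1 and WT replicate 1 the median member differed 9.74-fold, with 80% of members between 6.62-fold and 13.7-fold. These values are TPM as deposited, and the same counts were not made over all rows. The factors that scale the libraries over all genes (described below) ran in the same order as the pool. They were 0.702, 0.774 and 1.07 in sg34, against 1.66, 0.850 and 1.22 in WT, so this order was not particular to the members.

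**Figure D2:**
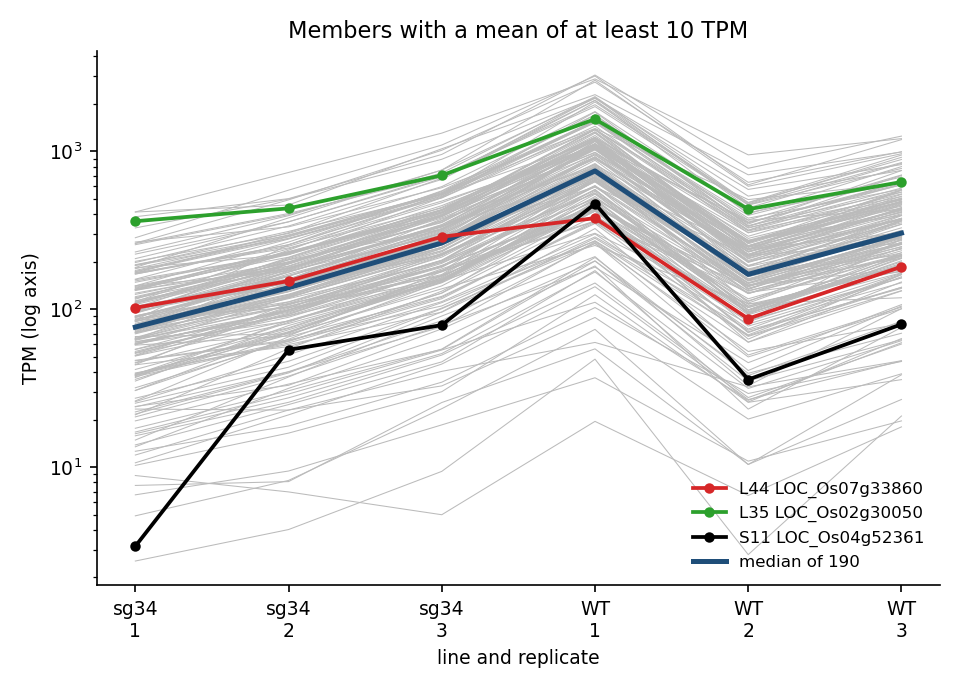
TPM (log axis) of the 190 members with a mean of at least 10 TPM in each library, with one grey line per gene, the median of the 190 in blue and the 3 members that departed over 1.5-fold from the pool in colour; lines join values of one gene and imply no order of replicates. Nearly all lines run in parallel and peak in WT replicate 1.

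Across genes, Pearson correlations between libraries ran from 0.905 to 0.989 for the 190 members, on log2 TPM. For all 6933 rows with a mean of at least 10 TPM they ran from 0.568 to 0.963, on log2(TPM + 1). These are correlations across genes, which are not independent replicates, and they also depend on the range of levels in each set. After scaling to the ribosomal protein pool (described below), 187 of the 190 members (98.4%) differed by less than 1.5-fold between the lines. In the same fit, 5132 of the 6933 rows (74.0%) lay within 1.5-fold of the median difference of those rows. The scaling was taken from these same 190 members, and the sets were not matched for level.

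The protein with the most transcript, summed over its copies, was L23 of the large subunit, with 732, 1285 and 2431 TPM in sg34, against 5912, 1686 and 2683 TPM in WT. L44, which sits near the site where spent tRNA leaves the ribosome, followed with 649, 911 and 1699 TPM in sg34, against 4864, 1160.1 and 1984 TPM in WT. L36 and L37 of the large subunit and S27a of the small subunit, which is made as a fusion with ubiquitin, came next. The median protein had 206, 352 and 691 TPM in sg34, against 2038, 449 and 793 TPM in WT. S6 of the small subunit, known as the target of the TOR-dependent S6 kinase, lay close to that median with 257, 415 and 769 TPM in sg34, against 2236, 479 and 793 TPM in WT.

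At the other end stood S21, a small subunit protein, with 24.2, 33.0 and 75.04 TPM in sg34, against 202, 35.1 and 64.1 TPM in WT. Above it lay L5, which binds the 5S ribosomal RNA, with 75.5, 135 and 223 TPM in sg34, against 606, 147 and 280.2 TPM in WT. L39, which lines the exit tunnel for the growing protein, had 150, 193 and 307 TPM in sg34, against 897, 257 and 450.1 TPM in WT. For all 3 the highest library was again WT replicate 1 and the lines overlapped. The coefficient of variation over the 79 proteins was 49.7%, 47.0% and 47.1% in sg34 and 43.8%, 48.3% and 44.8% in WT.

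The stalk binds the translation factors that hydrolyse GTP. P0 anchors it, P1 and P2 form its dimers, and P3 is a form found in plants. P0, summed over its 3 rows, had 135, 208 and 424 TPM in sg34, against 1415, 303 and 554 TPM in WT. P1, with a single row, LOC_Os08g02340, had 283, 567 and 1096 TPM in sg34, against 2999, 613 and 1186 TPM in WT. In both the lines overlapped, as they did in P2, with 257, 468 and 960.3 TPM in sg34, against 2563, 576 and 1022 TPM in WT. P3 had 116, 205 and 399 TPM in sg34, against 1289.6, 203 and 447 TPM in WT.

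Within the stalk, the balance of P0 and its partners separated the libraries of the lines. The sum of P1, P2 and P3 over P0 was 4.88, 5.97 and 5.79 in sg34, against 4.84, 4.59 and 4.79 in WT, with no overlap (exact permutation test, two-sided, p = 0.1, the smallest that 3 libraries against 3 can give). P0 over the median protein was 0.653, 0.591 and 0.613 in sg34, against 0.694, 0.676 and 0.699 in WT, also without overlap (exact permutation test, two-sided, p = 0.1). These are 2 of the 4 ratios that reached that p among 41 exact tests on summed levels and ratios, and the lowest p after Benjamini-Hochberg adjustment over those tests was 0.273. The 3 P0 rows themselves had log2 differences of -0.94 ± 0.41 (LOC_Os08g03640), -0.86 ± 0.49 (LOC_Os11g04070) and -0.75 ± 0.44 (LOC_Os12g03880) (SE), with limma adjusted p of 0.309, 0.409 and 0.414. A further 3 P2 rows were below the filter: LOC_Os07g14750 was listed at 0 in all libraries, and LOC_Os07g28710 and LOC_Os08g15180 were above 0 in 1 library each.

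S27a and L40 are released from ubiquitin after translation and so also feed the ubiquitin pool. Of the 11 rows so described, LOC_Os03g13170 (L40-2) was the highest, with 412, 457 and 1037 TPM in sg34, against 2284, 710 and 989 TPM in WT. For S27a, LOC_Os05g06770 had 256, 397 and 729 TPM in sg34, against 2220.0, 472 and 887 TPM in WT. Its sister copy LOC_Os01g22490 had 155, 278 and 519 TPM in sg34, against 1527, 317 and 652 TPM in WT. All 3 overlapped between the lines, with log2 differences of -0.49 ± 0.38, -0.69 ± 0.44 and -0.75 ± 0.45 (SE). LOC_Os09g39500, another L40 row, had 65.1, 118 and 231 TPM in sg34, against 779.8, 160.5 and 364 TPM in WT, and 6 rows of these fusions stayed below the filter.

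To test the genes one by one, TPM were scaled between libraries with trimmed mean of M values (TMM) factors over all genes and tested as log2(scaled TPM + 1) with limma, which understates the change of low genes. Of 16917 tested rows, 320 were higher in sg34 (1.89%) and 316 were lower (1.87%) at a Benjamini-Hochberg adjusted p under 0.05. Of the 197 tested members, 1 was higher (0.508%) and 0 were lower. At an unadjusted limma p under 0.05, 13 members were lower (6.60%) and 2 higher, against 8.44% lower and 8.82% higher over all tested rows. In this fit, neither share of members lay above that of all rows.

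The direction was shared all the same. The median log2 difference of the members, sg34 minus WT, was -0.76, with -0.75 for the 40S members, -0.77 for the 60S members and -0.75 for the stalk, against -0.01 over all tested rows. Of the 197 members, 194 lay below 0 (98.5%), against 50.7% of all rows. Members move together within a library, so this count is a description of a shared shift and not of 194 separate differences. The median was -0.39 without WT replicate 1 and -0.46 without sg34 replicate 1, but -1.02 without WT replicate 2. Without rescaling between libraries it was -1.28, where the median of all rows was -0.43. With the storage protein rows left out of the total and no further rescaling, the member median was -1.06 and that of all rows -0.26. That fit called 1 member higher and 0 lower, against 236 higher and 342 lower of the 16917 tested rows.

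**Figure D3:**
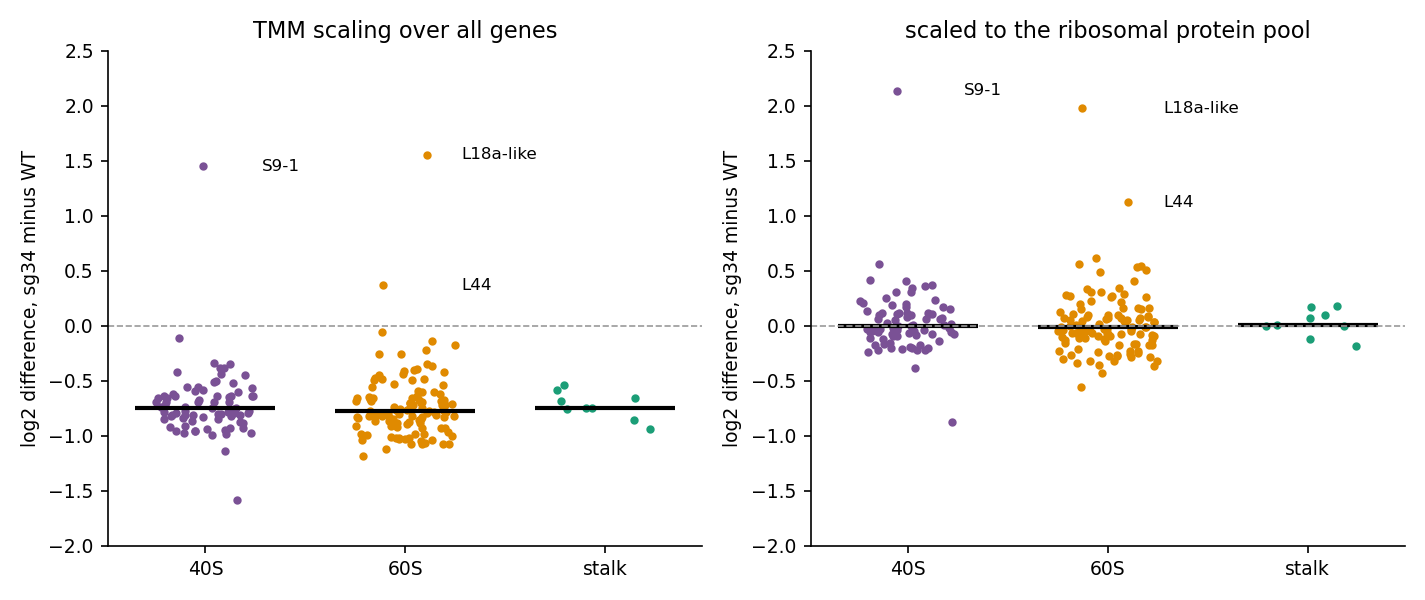
Log2 difference (sg34 minus WT) of the 197 tested members by subunit, one point per gene with the median as a bar, after TMM scaling over all genes (left) and after scaling each library to the ribosomal protein pool (right). On the left the medians lie between -0.77 and -0.75; on the right the pool is level by construction, and S9-1, L18a-like and L44 (LOC_Os07g33860) stand above it.

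Separation of the single libraries was no more frequent than elsewhere. On scaled TPM, 14 members had every sg34 library below every WT library (7.11%), against 12.7% of all tested rows, and 2 had every sg34 library above every WT library, against 10.9%. On TPM as deposited, LOC_Os03g15370 was the 1 tested member separated downward (0.508% of the 197, against 17.0% of all tested rows) and LOC_Os06g25294 the 1 separated upward (against 4.59% of all tested rows). Below the filter, the L40-2 row LOC_Os09g27930 was also separated downward, at 0.50, 0.26 and 0.47 TPM in sg34, against 1.21, 3.41 and 0.53 TPM in WT. LOC_Os03g15370, an L40 fusion of low level, had 0.60, 1.10 and 2.02 TPM in sg34, against 12.5, 2.35 and 3.45 TPM in WT, a difference of -1.08 ± 0.37 on the log2 scale (SE; adjusted p = 0.202 in limma).

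The member that rose in sg34 was LOC_Os06g25294, described as a 60S ribosomal protein L18a-like protein and without a ribosomal domain in the annotation. It had 3.66, 3.95 and 4.74 TPM in sg34, against 0.69, 1.14 and 1.79 TPM in WT, so that no library of one line reached the other. Its mean was 4.12 ± 0.559 TPM in sg34 and 1.21 ± 0.553 TPM in WT (SD, n = 3 each), a difference of 1.55 ± 0.25 on the log2 scale (SE; adjusted p = 0.0209 in limma). The direction held in every alternative in which it was tested, but the call was lost without sg34 replicate 1 (adjusted p = 0.105), replicate 2 (0.117) or replicate 3 (0.0652), and also without rescaling (0.0705), without a filter on low values (0.0608) or with a pseudocount of 0.1 (0.0552). The other 3 L18a-like rows did not pass the test in the fit reported here, though LOC_Os01g47680 was called lower with library weights (below). LOC_Os01g14070, the most abundant, had 23.3, 22.9 and 40.4 TPM in sg34, against 61.6, 32.2 and 47.1 TPM in WT (log2 difference -0.17 ± 0.17, SE).

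Another row stood apart from the other members. LOC_Os03g26229, described as S9-1, a small subunit protein at the mRNA entry, had 8.37, 10.9 and 18.1 TPM in sg34, against 15.4, 1.86 and 5.18 TPM in WT. WT replicate 1, the library in which all 190 more abundant members peaked, lay within the sg34 range here. Its log2 difference was 1.45 ± 0.42 (SE, limma adjusted p = 0.142), and 1.87 with an adjusted p of 0.0151 without WT replicate 1. Without that library, 2 members were higher and 0 lower (2 had an unadjusted limma p under 0.05 in that direction), against 2.15% higher and 2.19% lower of all tested rows. It carries no ribosomal domain in the annotation, and the main S9 copies were far higher: LOC_Os03g05980 had 201, 301 and 598 TPM in sg34, against 1783, 408 and 632 TPM in WT.

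A fit scaled to the ribosomal protein pool itself, added after the values had been seen, asks which members departed from the others. There 1 member was higher and 0 were lower, against 1.27% higher and 0.597% lower of all tested rows, and 3 members were higher and 0 lower at an unadjusted limma p under 0.05. The row was LOC_Os03g26229, with a difference of 2.14 ± 0.37 on the log2 scale (SE; adjusted p = 0.0274 in limma). The call was kept without WT replicate 1 (0.0153) or sg34 replicate 3 (0.0421) and lost without sg34 replicate 1 (0.112), sg34 replicate 2 (0.178), WT replicate 2 (0.0695) or WT replicate 3 (0.142). LOC_Os06g25294 followed with 1.98 ± 0.44 (adjusted p = 0.0745).

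The third was LOC_Os07g33860, an L44 copy, with 102, 151 and 288 TPM in sg34, against 377, 87.1 and 186 TPM in WT. Against the pool its log2 difference was 1.12 ± 0.30 (SE, limma adjusted p = 0.147), and after TMM scaling it was 0.37 ± 0.37. Without rescaling the sign turned to -0.15. The sole L35 row, LOC_Os02g30050, whose protein lies near the tunnel exit, had 361, 435 and 704 TPM in sg34, against 1599.6, 430 and 639 TPM in WT. It stood 0.62 above the pool and -0.14 after TMM scaling.

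The member farthest below the others was an S11 copy of the small subunit, LOC_Os04g52361. It had 3.15, 55.3 and 79.3 TPM in sg34, against 465, 35.8 and 80.2 TPM in WT. The log2 difference of -1.58 ± 1.16 (SE, limma adjusted p = 0.504) rested on 1 low and 1 high library, since the other 4 lay between 35.8 and 80.2 TPM.

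The next lowest members were LOC_Os05g28750 (L29-1), with a log2 difference of -1.18 ± 0.57, LOC_Os07g07709 (S18, a protein of the small subunit head) with -1.14 ± 0.46, and LOC_Os02g18380 (L27-3) with -1.12 ± 0.52 (SE). LOC_Os03g22180 (L18-3), LOC_Os02g01332 (L9) and LOC_Os01g54870 (L18a) all lay at -1.07. None passed the limma test, with adjusted p from 0.210 to 0.406 over these 6 genes. S18 shows the common pattern, with 77.7, 137 and 286 TPM in sg34, against 1053 TPM in WT replicate 1 and 214 and 432 TPM in the other WT libraries.

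The 8 most abundant rows lay from -1.12 for LOC_Os02g18380 (L27-3, above) to -0.42 on the log2 scale. LOC_Os10g32920 (L23), the highest of all, had 413, 734 and 1303 TPM in sg34, against 2873, 949 and 1203 TPM in WT, a difference of -0.49 ± 0.42 on the log2 scale (SE; adjusted p = 0.568 in limma). LOC_Os07g33997 (L44) stood at -0.81 ± 0.40, LOC_Os08g02340 (P1) at -0.68 ± 0.51, LOC_Os05g38520 (L36-2) at -0.72 ± 0.49 and LOC_Os04g28180 (S8) at -0.42 ± 0.41 (SE). In each of these the sg34 and WT libraries overlapped. At the upper edge of the tested members lay LOC_Os02g14059 (L11, which binds the 5S ribosomal RNA with L5) at -0.22 ± 0.29, LOC_Os01g08280 at -0.11 ± 0.17 and the L18a-like row LOC_Os05g49020 at -0.06 ± 0.29 (SE).

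Down-weighting libraries that deviate from the rest (limma array weights) was the alternative that called most members, with 2 higher (1.02%) and 17 lower (8.63%). Over all tested rows it called 12.6% higher and 10.5% lower, so the members' shares of calls again lay below those of all rows. At an unadjusted limma p under 0.05, this fit had 88 of the 197 members lower and 2 higher. Over the 16917 tested rows it had 3198 lower and 3467 higher, so before adjustment the lower share was larger among the members. Members move together within a library, so these 88 are not separate differences. The 17 include 7 of the small subunit, among them LOC_Os07g07709 (S18, adjusted p = 0.0409) and LOC_Os07g12650 (S12, adjusted p = 0.0265). The larger subunit gave LOC_Os09g32520 (L32-1), with a log2 difference of -1.26, LOC_Os06g21480 (L31) with -1.12 and LOC_Os09g39500 (L40-2) with -0.91. Also among the 17 were LOC_Os03g51510, described as a mitochondrial L6 protein, and the L18a-like row LOC_Os01g47680 (limma adjusted p = 0.0259). The 2 higher members were LOC_Os06g25294 (adjusted p = 0.00114) and LOC_Os03g26229 (adjusted p = 0.00339).

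Use of gene copies was compared as the share of the leading copy in the summed TPM of its protein, which does not depend on the scaling between libraries. Of 72 proteins with at least 2 tested copies, the mean share of the leading copy differed by less than 5 percentage points between the lines in 58, with a median absolute difference of 2.54 points. In 57 of the 72, one copy held over 50% in both lines. Near-identical copies can share reads and how these were assigned is not given in the sources used here, so values of single copies are uncertain.

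Among the 6 proteins with the largest differences, L17 and L44 separated the lines. LOC_Os09g08430 held 62.5%, 59.98% and 59.5% of L17, a protein of the exit tunnel, in sg34, against 66.7%, 71.3% and 71.2% in WT (exact permutation test, two-sided, p = 0.1). LOC_Os07g33997 held 59.4%, 55.0% and 56.2% of L44 in sg34, against 62.5%, 67.3% and 62.9% in WT (exact permutation test, two-sided, p = 0.1). Over the 72 exact tests on leading copies, 13 reached that smallest possible p, and the lowest adjusted p was 0.554.

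The other 4 overlapped between the lines. LOC_Os04g42380 held 77.9%, 53.6% and 54.2% of S11 in sg34, against 40.4%, 63.5% and 49.0% in WT, with sg34 replicate 1 and WT replicate 1 at the ends, as in its sister copy LOC_Os04g52361. LOC_Os02g14059 held 51.4%, 39.2% and 32.6% of L11 in sg34, against 26.1%, 38.4% and 28.3% in WT. LOC_Os04g28180 held 83.2%, 80.4% and 78.6% of S8 in sg34, against 73.0%, 79.0% and 69.6% in WT. Among the L18a-like rows, LOC_Os01g14070 held 72.0%, 71.7% and 80.0% in sg34, against 83.1%, 82.5% and 78.7% in WT.

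The proteins with most rows, L40 and P2 with 6 each, kept the same leading copy in every library. LOC_Os03g13170 held 86.3%, 79.3% and 81.7% of L40 in sg34, against 74.2%, 81.3% and 72.9% in WT. LOC_Os01g09510 held 54.7%, 56.9% and 57.9% of P2 in sg34, against 60.8%, 56.6% and 57.2% in WT.

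**Figure D4:**
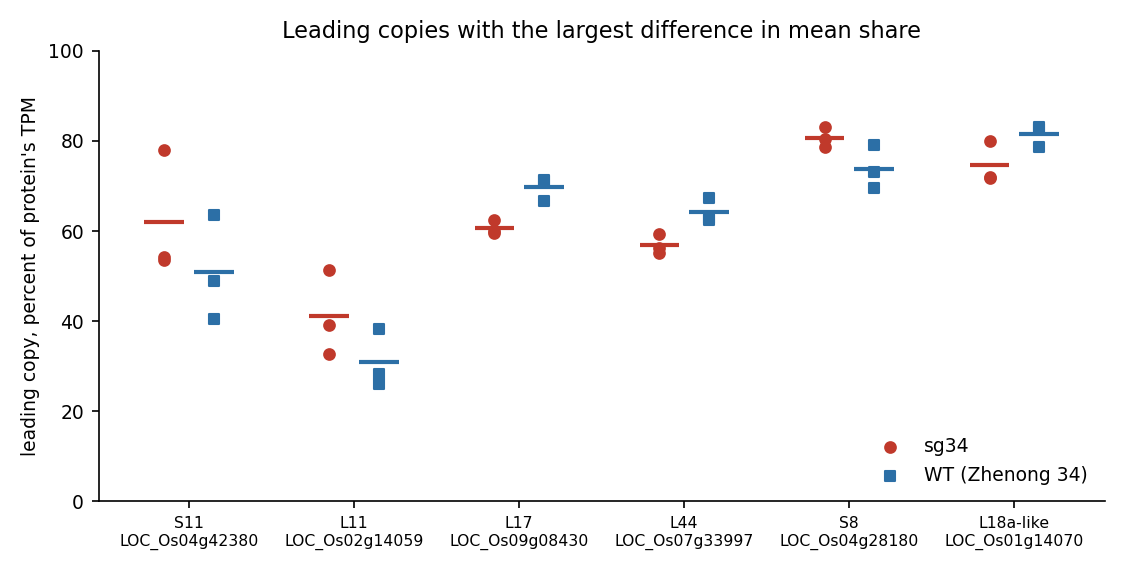
Share of the leading copy in the summed TPM of its protein, in percent, for the 6 proteins whose mean share differed most between the lines; points are libraries (circles sg34, squares WT) and bars are means of 3. The lines are separated for L17 and L44 and overlap for S11, L11, S8 and L18a-like.

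The wider machinery of protein synthesis was read from lists chosen by description. Of 154 rows of organelle ribosomal proteins, 83 were tested, 0 were called in either direction and 5 were lower at an unadjusted limma p under 0.05. Their median log2 difference was -0.45. Of 68 translation factor rows, 55 were tested, with 1 higher, 1 lower and a median of -0.44. At an unadjusted limma p under 0.05, 7 of these 55 were lower and 1 was higher. Of 68 ribosome biogenesis rows, 54 were tested, with 0 higher, 1 lower and a median of -0.40, and of 5 RNA polymerase I rows 4 were tested with 0 called, 1 lower at an unadjusted limma p under 0.05 and a median of -0.15. Of the 54 biogenesis rows, 5 were lower and 0 higher at an unadjusted limma p under 0.05. Over all tested rows 1.89% were higher, 1.87% lower and 8.44% lower at an unadjusted limma p under 0.05, so that 1 call among the translation factors or the biogenesis rows lies near the background. Before adjustment, the lower share of the translation factors lay above that of all rows, and that of the biogenesis rows lay close to it. All 4 medians lay between that of the cytosolic ribosomal proteins (-0.76) and that of all tested rows (-0.01).

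The summed levels of these lists also peaked in WT replicate 1. Translation factors took 0.300%, 0.452% and 0.779% of the TPM total in sg34, against 1.83%, 0.538% and 0.819% in WT. Organelle ribosomal proteins took 0.0907%, 0.143% and 0.269% in sg34, against 0.694%, 0.163% and 0.245% in WT. The cytosolic pool was thus 20.1, 21.3 and 21.9 times the organelle pool in sg34, against 24.9, 23.7 and 28.3 times in WT, with no overlap (exact permutation test, two-sided, p = 0.1). Against RNA polymerase I rows, named for the enzyme that transcribes the ribosomal RNA genes, the ratio was 982, 1281 and 1471 in sg34, against 1967, 1704 and 1476 in WT, likewise at p = 0.1 in the exact permutation test. The gap between 1471 and 1476 was narrow, and these rows took at most 0.00879% of a library's TPM total. Against translation factors the ratio was 6.08, 6.72 and 7.57 in sg34 and 9.47, 7.17 and 8.48 in WT, and these overlapped. The ratios to organelle and RNA polymerase I rows are among the 4 that reached p = 0.1 in the 41 exact permutation tests. The lowest p after Benjamini-Hochberg adjustment over those tests was 0.273.

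The called rows of these lists were 3. LOC_Os11g39300, described as subunit I of initiation factor 3, was listed at 0 in all sg34 libraries, against 2.24, 2.75 and 3.55 TPM in WT (limma adjusted p = 0.0116). This call was lost in 5 of 14 alternatives, namely without any 1 of the sg34 libraries, without WT replicate 3 and with a replicate block, at adjusted p from 0.0517 to 0.0717. The other rows with that description, LOC_Os05g16660 and LOC_Os08g21660, were far more abundant, at 22.5 and 16.2 TPM or more in every library, and did not pass the test. LOC_Os11g45220, described as nucleolar protein 58, a core protein of small nucleolar RNA particles, had 0.03, 0.22 and 0 TPM in sg34, against 3.43, 3.73 and 3.62 TPM in WT (-1.87 ± 0.25 on the log2 scale, SE, limma adjusted p = 0.00850). Its call was lost without sg34 replicate 1 (adjusted p = 0.0518) and kept in all others of the 14 alternatives in which it was tested. Other rows for this protein were far more abundant and did not pass the test. LOC_Os03g22730, LOC_Os03g22740 and LOC_Os08g39090 had at least 13.9, 18.2 and 19.9 TPM in every library, with log2 differences of -0.41, -0.45 and 0.28. LOC_Os03g45280, at 3.56 to 63.4 TPM, did not pass either, and LOC_Os11g37120 stayed below the filter. LOC_Os03g29260, described as elongation factor 1-delta 2, rose in sg34, with 34.4, 40.2 and 82.8 TPM, against 48.3, 18.4 and 25.5 TPM in WT (1.27 ± 0.25, limma adjusted p = 0.0443). The direction held in all 15 alternatives, but the call was lost in 9 of them: without rescaling (adjusted p = 0.380), without storage protein rows (0.245), without a filter on low values (0.0852), with a replicate block (0.216), and in 5 of the 6 fits that leave out 1 library, all but that without WT replicate 1 (0.0953 to 0.154). On TPM as deposited the lines overlapped. The far more abundant sister row LOC_Os07g42300, described as elongation factor 1-delta 1, had 254, 314 and 585 TPM in sg34, against 1336, 474 and 573 TPM in WT. Its difference was -0.46 ± 0.33 on the log2 scale (SE, limma adjusted p = 0.496).

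Other rows of the lists did not pass the threshold. LOC_Os12g33240, a mitochondrial S10 protein, had 20.2, 24.5 and 45.5 TPM in sg34, against 134, 58.3 and 77.5 TPM in WT, a difference of -1.04 ± 0.22 on the log2 scale (SE; adjusted p = 0.0572 in limma). The cap-binding factor isoform 4E-2, LOC_Os10g32970, had 23.8, 30.4 and 59.0 TPM in sg34, against 182, 61.1 and 90.4 TPM in WT (-0.98 ± 0.27, limma adjusted p = 0.130). In both every sg34 library lay below every WT library. LOC_Os07g19190, described as the biogenesis protein RLP24, stood at -0.74 ± 0.23 (adjusted p = 0.179), and LOC_Os03g50380, the RNA polymerase I subunit RPA12, at -0.64 ± 0.24 (adjusted p = 0.246). In the same list, LOC_Os05g28470, described as a TATA box-binding protein-associated factor, stood at -0.23 ± 0.19 (SE, limma adjusted p = 0.549). The probable subunit RPA2, LOC_Os10g35290, lay the other way at 0.22 ± 0.30 (SE, limma adjusted p = 0.730).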

How the data were processed

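The authors' deposited table gives TPM per gene and library. Per the submitters' processing notes, Bowtie2, HISAT2 2.1.0, StringTie, RSEM and DESeq2 1.12.4 were used; roles are not stated, and the build they name (mouse) does not match the rice locus IDs, so the build is not given in the sources used here. Per the labels' protocols, libraries were made with a SMARTER mRNA-Seq kit. TPM keep no depth, so no counting intervals are given, and no count model was run. Mutant columns named sg31 to sg33 were matched by replicate number to the sg34 libraries, the only mutant.

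Members and lists were chosen with earlier results of these data known. Rows with at least 1 TPM in 3 libraries (16917 of 55986) were scaled by unweighted TMM factors (0.702 to 1.66; trim of 30% for M, 5% for A). The log2 of scaled TPM plus 1 entered limma 3.58.1 (R 4.3.3) with a variance trend and Benjamini-Hochberg adjustment at 0.05; the script was tested on simulated data. Single summed values had exact permutation tests. Named genes were those past the threshold, the 8 highest and 8 lowest differences, the 8 most abundant, stalk, S27a and L40 members, the 6 proteins whose copy shares differed most, those with most rows, and the 3 smallest p of each list. Alternatives changed scaling, filter, pseudocount, variance model, replicate block and libraries. There were 0 further per-sample columns. No sequences were used.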

Additional observations from a re-analysis of the deposited data

How the results depend on the processing

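The summed share and the median log2 difference of the ribosomal protein genes kept their direction under every alternative run: leaving out 1 library gave -8.54 to -1.82 percentage points for the share and -1.02 to -0.39 for the median. The number of members called higher (1 as reported) was 0 without rescaling, without a filter on low values, with at least 5 TPM in 3 libraries (where the called row is not tested) and with a pseudocount of 0.1; it was 2 with library weights and 0 to 2 without 1 library. Members called lower (0 as reported) were 17 with library weights and 0 in the other alternatives, and 13 had p below 0.05 in limma before adjustment. That count before adjustment depended on the fit. It was 88 with library weights, 0 with a replicate block and 0 to 61 without 1 library. The 61 were found without WT replicate 2, against 1652 of all 16917 rows. For the fit scaled to the pool, chosen after seeing the data, leaving out 1 library gave 0 to 2 higher. Over all rows, 320 higher and 316 lower became 129 and 140 with at least 5 TPM, 2137 and 1779 with library weights, 165 to 364 and 155 to 370 without 1 library, and 186 higher without rescaling. With the replicate number as a block, 131 rows were higher and 123 lower, and the called member was lost (limma adjusted p = 0.113, so 0 members). Same-numbered libraries had correlations of -0.54, 0.0032 and -0.37 of their deviations from the line means. These gave no sign of a pairing by number, but with 3 libraries a line they cannot exclude one. Signs turned for LOC_Os02g30050 (0.0516 with library weights, -0.30 to 0.17 without 1 library), LOC_Os01g08280 (0.0470 with library weights), LOC_Os05g49020 (-0.27 to 0.25 without 1 library), LOC_Os07g33860 (-0.15 without rescaling) and LOC_Os08g41810, an L17 copy (-0.64 to 0.0652 without 1 library); none of these passed the threshold. The cause was not tested. With 3 libraries a line and unknown depth, small differences in single genes were not detectable.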
